A study of Homo sapiens with 6 samples.

Results

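The ERBB receptors EGFR, ERBB2 and ERBB3 and the EGF-like ligands AREG, EREG, TGFA, HBEGF, BTC and EGF were followed in DLD1 cells, a long-established line from a human colorectal adenocarcinoma. The genes came from a list of 9 receptors and ligands, chosen with earlier results of these data known. Each was represented by all probe sets that name it and no other gene. This gave 29 of the 54613 non-control probe sets of the array, 17 for the 3 receptors and 12 for 5 of the 6 ligands. AREG is not analysed here, because no probe set carries its name in the annotation that was used. The SAH-BCL9B group held 3 cultures exposed to 10 µM SAH-BCL9B for 12 h, and the vehicle group held 3 cultures exposed to DMSO for 12 h. SAH-BCL9B is a hydrocarbon-stapled peptide modelled on the helix of BCL9 that binds beta-catenin. No control peptide was included, so an effect of the stapled peptide format cannot be told apart from one of the BCL9 sequence. Levels were read on Affymetrix Human Genome U133 Plus 2.0 arrays and are log2 expression values.

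EGF-like ligands are made as membrane-anchored precursors and are released by metalloproteases of the ADAM family. Released ligand binds EGFR or ERBB4, the receptors pair with each other or with ERBB2 and ERBB3, and the pair signals through the RAS-ERK and PI3K-AKT pathways. ERBB2 has no known ligand of its own, and ERBB3 has little kinase activity and relies on its partner. Colorectal cancer cells commonly make several of these ligands themselves, and antibodies against EGFR are used to treat the disease.

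Each of 11 colorectal epithelial markers had a vehicle mean above the array medians of 6.58 to 6.62, with a range of 7.12 for CDX1 to 14.90 for KRT18. Of 9 measured leukocyte, stromal and endothelial markers, COL1A1 and PECAM1 were also above, at 8.55 and 7.25, and the other 7 were below, with a range of 4.19 for CDH5 to 6.55 for CD3E. In limma's gene fit the epithelial marker KRT8 rose by 0.50 on the log2 scale, and VIL1 fell by 0.86 and CDH17 fell by 0.55 (limma adjusted p = 0.0113, 0.00303 and 0.00806). The part of these changes in other results was not tested. None of these 9 passed in either direction (lowest limma adjusted p = 0.373). The array SAH-BCL9B 2 stood apart from the rest by ACTB, though not by GAPDH. Its difference between 3′ and 5′ probe sets of ACTB, a measure of RNA integrity and labelling, was 0.74, against 1.2 and 1.33 in the other SAH-BCL9B arrays and 1.21 to 1.38 in vehicle arrays. This difference averaged 1.09 in SAH-BCL9B and 1.29 in vehicle (exact two-sided permutation p = 0.4, where 0.1 is the smallest that 3 against 3 arrays allow). The same difference for GAPDH was 0.14 in SAH-BCL9B 2, within the 0.09 to 0.17 of the other arrays. For GAPDH it averaged 0.12 in SAH-BCL9B and 0.16 in vehicle (exact two-sided permutation p = 0.2). Over all probe sets the SD of values was 2.421 in SAH-BCL9B 2 and 2.430 in vehicle 3, and 2.470 to 2.491 in the other 4 arrays.

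After 12 h with SAH-BCL9B, 1 of the 29 probe sets passed an adjusted p of 0.05, a probe set of the ligand BTC, and it was lower. Over the whole array 1.37% of probe sets passed downward and 1.12% upward in the same limma fit. No receptor probe set passed in either direction. The 3 SAH-BCL9B arrays lay below the 3 vehicle arrays in 8 of the 29 probe sets, 6 of ligands and 2 of ERBB3, against 9.73% of all probe sets. They lay above in 1, of EGFR, against 12.3% of all probe sets. Both shares cover dim probe sets too, whereas all 8 lower probe sets were among the 18 with vehicle arrays above their array medians. The share of separate groups among brighter probe sets alone was not computed. The median log2 change was -0.29 over the 12 ligand probe sets, 0.01 over the 17 receptor probe sets and 0.01 over all probe sets. With each gene represented by the probe set of highest mean, and p adjusted over 19775 genes, 3 of 5 measured ligands fell, BTC, TGFA and HBEGF. In that gene fit 3.43% of all genes fell and 3.49% rose, and none of the 3 receptors passed. These fits use the same values, but differ in how many features the adjustment covers and in limma's variance moderation (prior degrees of freedom 3.6 over probe sets and 3.94 over genes). When each gene's probe sets were averaged instead, BTC alone fell among the 8 measured receptors and ligands (limma adjusted p = 0.0194). A lower level in RNA from a whole culture cannot be told apart from fewer cells making the transcript.

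**Figure D1:**
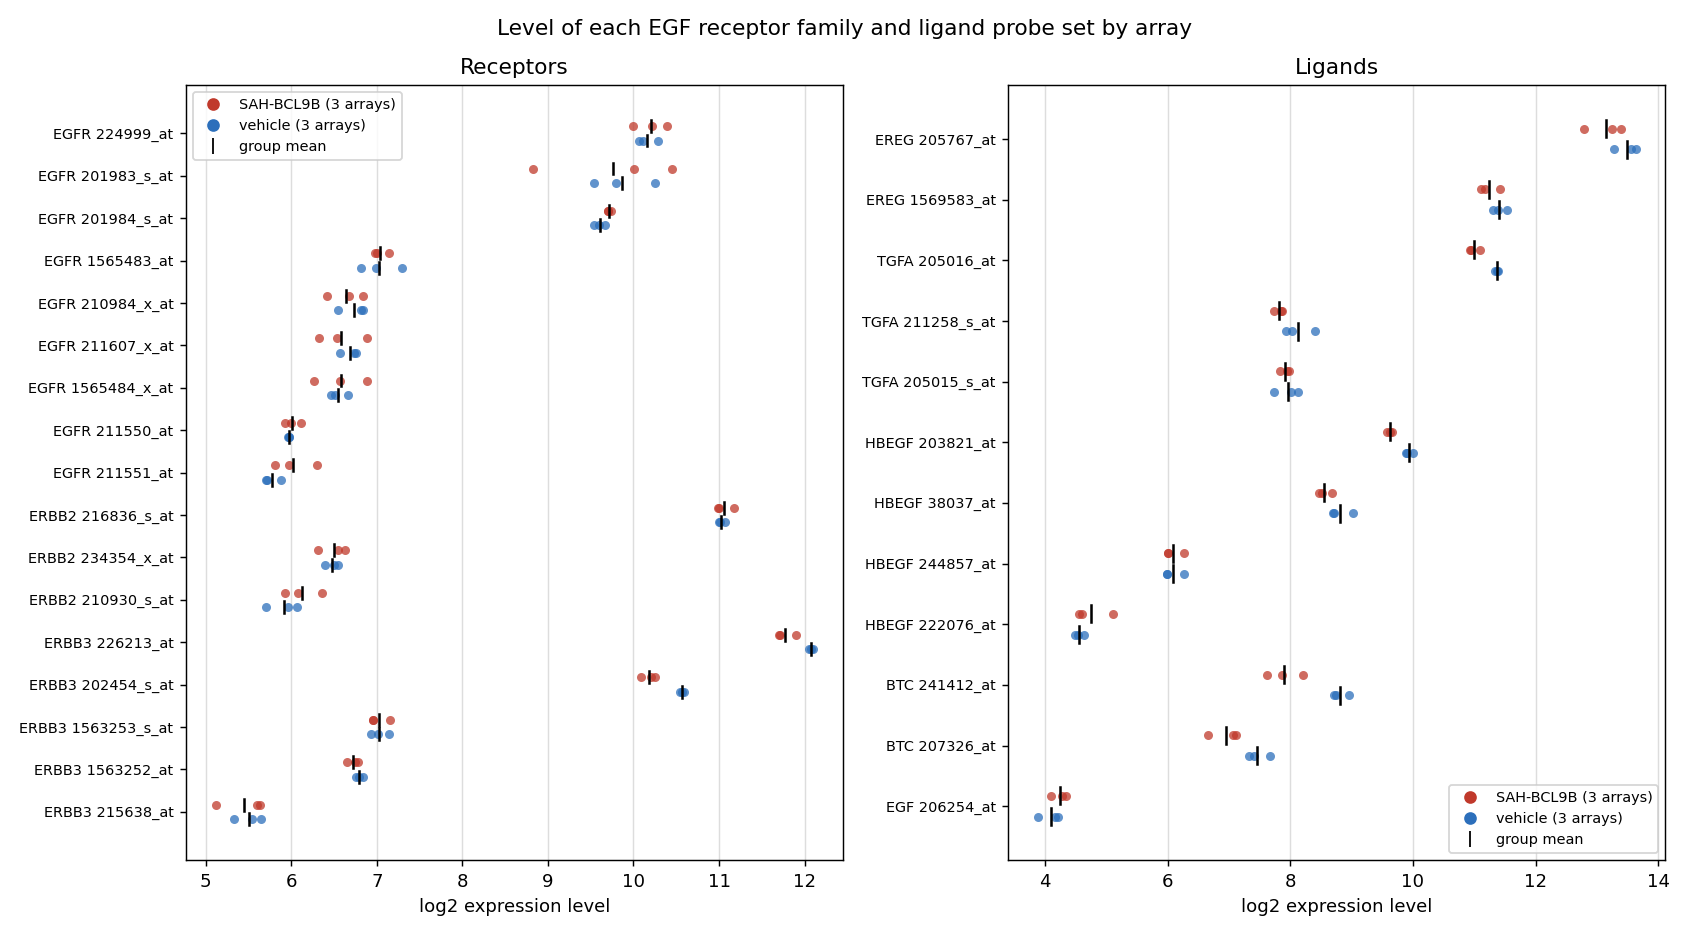
Log2 expression level (horizontal axis) of the 17 receptor probe sets (left) and 12 ligand probe sets (right) in each of 3 SAH-BCL9B arrays (red) and 3 vehicle arrays (blue), with the group mean as a black bar. The groups are separate for both BTC probe sets, and most receptor probe sets overlap.

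The windows just before the annotated transcription start sites of the 3 ligand genes that fell in the gene fit are printed to show the sequence in front of these genes. They are the 250 bases upstream of each start in RefSeq's annotation of GRCh38.p14, read 5′ to 3′ on the gene's strand, and TGFA has 2 annotated starts. Capitals mark a GC box, GGGCGG or its reverse complement, which Sp1-type factors can bind, found on either strand. A pair of neighbouring matches in the HBEGF window overlaps.
BTC (chr4:74794524-74794773, minus strand): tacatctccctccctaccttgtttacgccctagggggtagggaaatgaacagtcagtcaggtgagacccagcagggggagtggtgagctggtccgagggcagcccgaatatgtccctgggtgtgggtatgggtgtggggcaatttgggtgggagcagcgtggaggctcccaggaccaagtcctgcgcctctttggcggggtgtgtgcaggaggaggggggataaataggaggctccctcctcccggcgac
TGFA, first start (chr2:70553827-70554076, minus strand): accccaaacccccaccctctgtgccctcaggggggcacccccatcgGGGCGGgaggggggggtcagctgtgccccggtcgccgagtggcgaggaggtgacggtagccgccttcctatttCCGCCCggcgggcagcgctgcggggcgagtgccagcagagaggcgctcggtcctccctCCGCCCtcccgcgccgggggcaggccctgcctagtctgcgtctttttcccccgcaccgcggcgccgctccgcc
TGFA, second start (chr2:70553447-70553696, minus strand): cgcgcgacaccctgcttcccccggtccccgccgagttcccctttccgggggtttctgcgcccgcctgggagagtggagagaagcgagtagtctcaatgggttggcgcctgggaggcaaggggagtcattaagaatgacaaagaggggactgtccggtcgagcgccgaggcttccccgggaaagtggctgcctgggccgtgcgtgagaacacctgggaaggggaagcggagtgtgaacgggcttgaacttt
HBEGF (chr5:140346604-140346853, minus strand): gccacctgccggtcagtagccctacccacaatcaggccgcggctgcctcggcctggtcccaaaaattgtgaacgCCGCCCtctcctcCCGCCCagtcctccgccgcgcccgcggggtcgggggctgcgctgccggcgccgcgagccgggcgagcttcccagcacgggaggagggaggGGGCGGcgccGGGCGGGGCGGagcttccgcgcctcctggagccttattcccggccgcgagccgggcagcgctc
The HBEGF window held 5 GC boxes, the first TGFA window 3, and the second TGFA window and the BTC window 0. Of 35116 annotated windows of this length, 42.6% held at least 1. None of these 4 windows held a TCF/LEF motif (CTTTG followed by AA, AT, TA or TT), against 12.0% of all windows. The windows of EGFR, ERBB2, AREG, EREG and EGF held none either, so its absence is not particular to the genes that fell. No ERBB3 window was available. GC boxes were also in the first EGFR window and the AREG window, though not in the second EGFR window or those of ERBB2, EREG and EGF. None of the 4 printed windows held AP-1 (TGANTCA, 6.57% of all windows), CRE (TGACGTCA, 1.65%), ETS (CCGGAAG, 8.52%) or TATAAA (10.7%). Both strands were searched for each motif, and the absence of a match says only that these letters are not in these windows.

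BTC encodes betacellulin, a ligand that can activate EGFR and ERBB4. Its probe set 241412_at had log2 levels of 7.86, 7.62 and 8.21 in SAH-BCL9B 1 to 3, against 8.74, 8.96 and 8.71 in vehicle 1 to 3. All 3 SAH-BCL9B arrays were below all 3 vehicle arrays. The mean was 7.90 ± 0.30 in SAH-BCL9B and 8.81 ± 0.14 in vehicle (SD, n = 3 each), a 1.88-fold lower level. The log2 change was -0.91 ± 0.16 (SE, limma adjusted p = 0.0327). The other BTC probe set, 207326_at, had 7.11, 6.66 and 7.06 in SAH-BCL9B and 7.67, 7.40 and 7.32 in vehicle, again without overlap. Its log2 change was -0.52 ± 0.15 and did not pass over all probe sets (limma adjusted p = 0.139). The fall of 241412_at missed the threshold without SAH-BCL9B 1, SAH-BCL9B 3, vehicle 1, vehicle 2 or vehicle 3 (limma adjusted p = 0.0586 to 0.131), and passed without SAH-BCL9B 2. SAH-BCL9B 2 was the lowest array in both BTC probe sets. Without it the change was -0.77 for 241412_at and -0.37 for 207326_at. With the ACTB difference as a covariate the changes were -0.74 and -0.34. In the gene fit the adjusted p of BTC from limma was 0.0139, and it missed the threshold there without SAH-BCL9B 1, vehicle 1 or vehicle 2 (limma adjusted p = 0.0536 to 0.0598). Over the 6 arrays, the genes past the threshold that followed BTC most closely were AGMAT, BRIP1 and LMO4, with Pearson correlations of 0.994, 0.988 and 0.987, a description over 6 points in 2 groups.

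TGFA encodes transforming growth factor alpha, an EGFR ligand. Its probe set 205016_at had log2 levels of 11.10, 10.94 and 10.93 in SAH-BCL9B, against 11.37, 11.39 and 11.34 in vehicle. All 3 SAH-BCL9B arrays were below the vehicle arrays, which lay close together. The log2 change was -0.38 ± 0.09 (SE), 1.30-fold lower, with a limma adjusted p of 0.0737 over all probe sets and 0.0307 in the gene fit. The probe set 211258_s_at also had separate groups, 7.73 to 7.86 in SAH-BCL9B and 7.93 to 8.40 in vehicle, with a log2 change of -0.31 ± 0.13 (limma adjusted p = 0.318). Without vehicle 1, its highest array, the change was -0.17. The third, 205015_s_at, overlapped between groups, with a change of -0.04 and a 95% confidence interval of -0.32 to 0.23. With the mean of the 3 probe sets the change was -0.24 and TGFA did not pass (limma adjusted p = 0.136). In the gene fit TGFA also missed the threshold without SAH-BCL9B 2, SAH-BCL9B 3 or any 1 vehicle array (adjusted p from limma up to 0.131). Among genes past the threshold, TMEM18, NSMCE4A and OGT followed TGFA most closely over the 6 arrays, with Pearson correlations of 0.997, 0.996 and 0.995. This is again a description over 6 points in 2 groups. Genes past the threshold were selected for a difference between the same groups, so high correlations with TGFA or BTC follow from that selection.

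HBEGF encodes heparin-binding EGF-like growth factor, which binds EGFR and ERBB4. Its probe set 203821_at had log2 levels of 9.66, 9.57 and 9.63 in SAH-BCL9B, against 9.89, 10.00 and 9.91 in vehicle. The groups were separate, and the change was -0.32 ± 0.08 (SE), 1.25-fold lower. The limma adjusted p was 0.102 over all probe sets and 0.0452 in the gene fit. The probe set 38037_at had 8.68, 8.51 and 8.46 in SAH-BCL9B and 8.70, 9.02 and 8.72 in vehicle, with a change of -0.26 ± 0.12 (limma adjusted p = 0.347), and -0.16 without vehicle 2, the highest array. SAH-BCL9B 1 was just below the lowest vehicle array there. The dimmer probe sets 244857_at and 222076_at had changes of 0.00 and 0.19, and neither passed. Averaging the 4 HBEGF probe sets gave a change of -0.10 (limma adjusted p = 0.639). Leaving out any single array ended the call of HBEGF in the gene fit (limma adjusted p = 0.0718 to 0.163).

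EREG encodes epiregulin, a ligand of EGFR and ERBB4, and lies on chromosome 4 with AREG, BTC and EGF. Its probe set 205767_at had log2 levels of 13.24, 12.79 and 13.39 in SAH-BCL9B, against 13.63, 13.56 and 13.28 in vehicle. SAH-BCL9B 2 was the lowest, and SAH-BCL9B 3 was above vehicle 3. The change was -0.35 ± 0.17 (SE) and did not pass (limma adjusted p = 0.394). It was -0.18 without SAH-BCL9B 2, the array with the low ACTB difference, and -0.13 with that difference as a covariate. The probe set 1569583_at had 11.42, 11.11 and 11.17 in SAH-BCL9B and 11.53, 11.30 and 11.38 in vehicle. Its change was -0.17, with a 95% confidence interval of -0.44 to 0.09, and ran from -0.26 without SAH-BCL9B 1 to -0.11 without SAH-BCL9B 2 or vehicle 1.

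EGF, the ligand that gave the family its name, had 1 probe set, 206254_at. Its log2 levels were 4.28, 4.34 and 4.10 in SAH-BCL9B and 4.21, 3.89 and 4.17 in vehicle, far below the array medians of 6.58 to 6.62. The groups overlapped, and the change of 0.15 ± 0.12 (SE) did not pass (limma adjusted p = 0.657). Of the 29 probe sets, 18 had all 3 vehicle arrays above their array medians, among them all 8 in which the SAH-BCL9B arrays lay below the vehicle arrays. Levels of different probe sets are not compared with each other, because each probe set binds with its own affinity.

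ERBB3, the partner receptor that couples strongly to PI3K, was the 1 receptor with probe sets whose SAH-BCL9B arrays all lay below the vehicle arrays. Its probe set 202454_s_at had log2 levels of 10.25, 10.09 and 10.20 in SAH-BCL9B, against 10.57, 10.54 and 10.59 in vehicle. The change was -0.38 ± 0.08 (SE), 1.31-fold lower, and missed the threshold (limma adjusted p = 0.0618). The probe set 226213_at had 11.90, 11.71 and 11.70 in SAH-BCL9B and 12.05, 12.08 and 12.10 in vehicle. Its change was -0.30 ± 0.09 (limma adjusted p = 0.144, and 0.0716 in the gene fit). In both probe sets every SAH-BCL9B array was below every vehicle array. The other 3 ERBB3 probe sets, 1563253_s_at, 1563252_at and 215638_at, overlapped between groups, with changes of 0.00, -0.07 and -0.05. The probe set 202454_s_at passed in 5 alternatives. They were the filter on low values, probe sets naming 1 gene, a repeated quantile normalization, a variance trend with robust fit, and array weights (limma adjusted p = 0.0133 to 0.0475). Over all alternatives the limma adjusted p of 202454_s_at ran from 0.0133 to 0.238. It missed the threshold with any single array left out (limma adjusted p = 0.0898 to 0.238). With the mean of all ERBB3 probe sets the change was -0.16 and ERBB3 did not pass (limma adjusted p = 0.261).

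EGFR, the main receptor of these ligands, had 9 probe sets and none passed. The probe set 224999_at had log2 levels of 10.39, 9.99 and 10.22 in SAH-BCL9B and 10.29, 10.06 and 10.11 in vehicle. The groups overlapped, and the change of 0.05 had a 95% confidence interval of -0.24 to 0.34. The probe set 201984_s_at had 9.70, 9.70 and 9.74 in SAH-BCL9B and 9.60, 9.54 and 9.67 in vehicle, with a change of 0.11 (interval -0.08 to 0.30). It is the 1 member whose SAH-BCL9B arrays lay above the vehicle arrays. The probe set 201983_s_at had 10.45, 8.82 and 10.01 in SAH-BCL9B and 10.25, 9.54 and 9.79 in vehicle. Its change of -0.10 had an interval of -1.01 to 0.82, and the low value was in SAH-BCL9B 2. Without that array the change was 0.38, and with the ACTB difference as a covariate it was 0.41 (limma adjusted p = 0.419 in each). The remaining 6 EGFR probe sets had changes of -0.11 to 0.26 (limma adjusted p of 0.435 or more).

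ERBB2 encodes the preferred partner of the other ERBB receptors. Its probe set 216836_s_at had log2 levels of 10.99, 11.17 and 11.00 in SAH-BCL9B and 11.07, 11.00 and 11.01 in vehicle. The groups overlapped, and the change was 0.03 with a 95% confidence interval of -0.18 to 0.23. The probe sets 234354_x_at and 210930_s_at had vehicle means of 6.48 and 5.91, below the array medians, and changes of 0.02 and 0.21. The largest fall of an ERBB3 probe set, -0.38 for 202454_s_at, lies within the intervals of EGFR 201983_s_at, 210984_x_at and 211607_x_at. The intervals of the other 6 EGFR and the 3 ERBB2 probe sets do not reach it. Neither do those of ERBB3's own 1563253_s_at (-0.24 to 0.23) and 1563252_at (-0.26 to 0.12), so this does not settle whether a gene fell. EGFR 210984_x_at, 211607_x_at, 1565484_x_at, 211550_at and 211551_at and ERBB2 234354_x_at and 210930_s_at did not have all 3 vehicle arrays above the array medians.

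**Figure D2:**
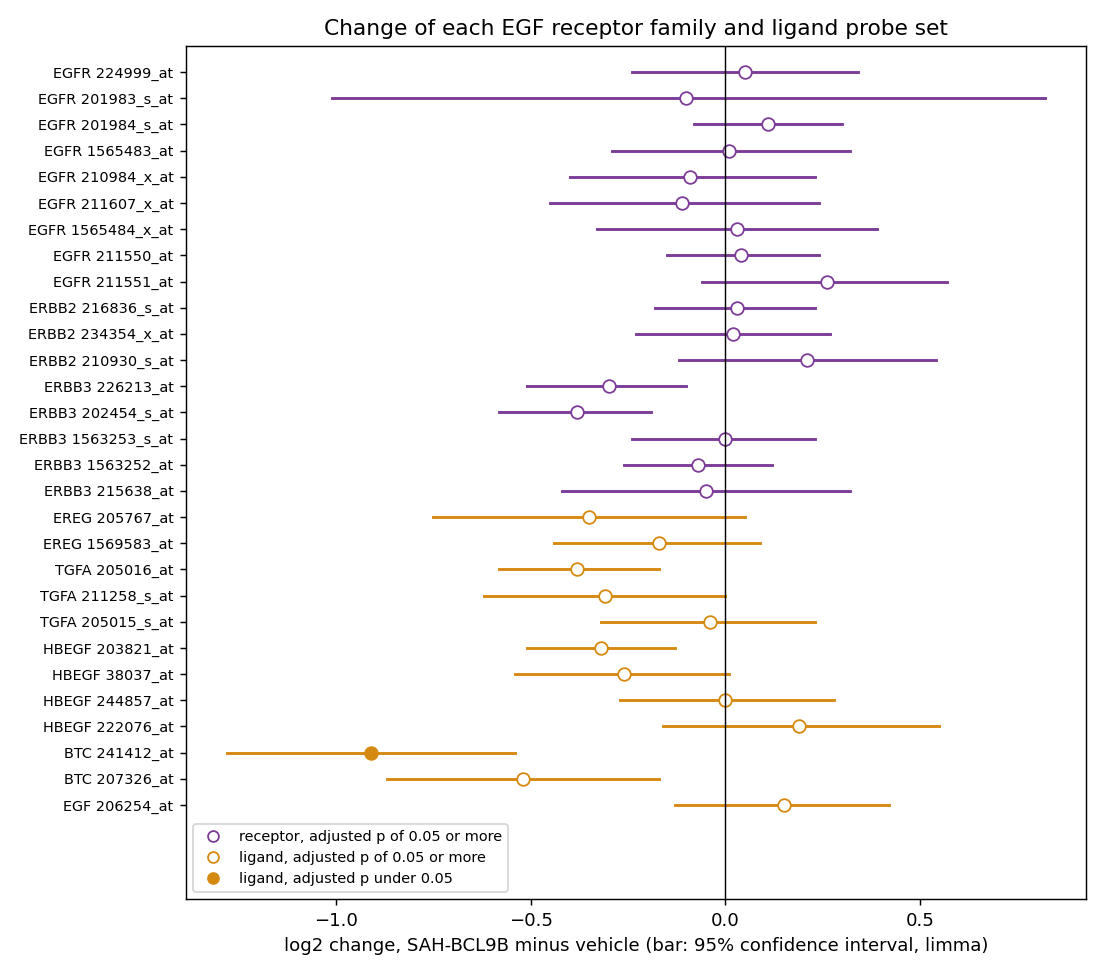
Log2 change, SAH-BCL9B minus vehicle (horizontal axis), of each of the 29 probe sets, with bars for limma's 95% confidence interval, receptors in purple and ligands in orange. The filled point, BTC 241412_at at -0.91, is the 1 probe set past the adjusted threshold, and the widest interval is that of EGFR 201983_s_at.

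Genes that act with the receptors and ligands were read from the gene fit, 1 probe set per gene, in 8 lists. Of 82 measured genes, 2 fell, 7 rose and 73 did not pass, beside shares of 3.43% lower and 3.49% higher over all genes. The median change was 0.06, against 0.02 over all genes. In the fit over all probe sets, DUSP5, FOS, SPRY4, RHBDF2 and HRAS also passed, and IER3, FOSL1, SOS1 and MAP2K2 did not (limma adjusted p = 0.0534, 0.0691, 0.0931 and 0.104). The other receptor ERBB4 and the neuregulin genes NRG1 to NRG4 did not pass, and 5 of 6 genes of that list were measured. ERBB4 had a change of 0.21 ± 0.09 (SE, limma adjusted p = 0.245).

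In the list of sheddases and ligand processing, RHBDF2 rose and none of 10 genes fell, beside 3.49% of all genes higher. RHBDF2 encodes iRhom2, a pseudoprotease that brings the sheddase ADAM17 to the cell surface. Its log2 levels were 8.95, 9.02 and 9.09 in SAH-BCL9B, against 8.46, 8.59 and 8.29 in vehicle, with no overlap. The change was 0.58 ± 0.10 (SE, limma adjusted p = 0.0136), and missed the threshold without SAH-BCL9B 3 or vehicle 1 (limma adjusted p = 0.0587 and 0.066). FRMD8, whose product binds the iRhoms, and ADAM17 itself had values of 0.41 and 0.29 and did not pass (limma adjusted p = 0.0694 and 0.0699). ADAM10, which sheds BTC and EGF, had a change of -0.02.

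Among 12 measured receptor-proximal adaptors, SOS1 rose and none fell, beside the same share. SOS1, which loads RAS with GTP, had 11.43, 11.52 and 11.46 in SAH-BCL9B and 11.08, 11.19 and 11.16 in vehicle (log2 change 0.33 ± 0.07, SE, limma adjusted p = 0.0403). Of its 5 probe sets 1 had a negative change, and with their mean the change was 0.19 (limma adjusted p = 0.182). Of the 13 genes listed for the RAS-RAF-MEK-ERK cascade, 7 were measured, of which 2 rose and none fell, beside 3.49% of all genes higher. HRAS had levels of 11.10 to 11.13 in SAH-BCL9B and 10.68 to 10.76 in vehicle (0.40 ± 0.07, limma adjusted p = 0.017). MAP2K2, which encodes the kinase MEK2, had 10.62 to 10.73 in SAH-BCL9B and 10.35 to 10.37 in vehicle (0.31 ± 0.07, limma adjusted p = 0.0457). Leaving out any single array ended the calls of SOS1 and MAP2K2 (limma adjusted p = 0.065 to 0.182). Leaving out any array other than SAH-BCL9B 2 ended that of HRAS (limma adjusted p = 0.0553 to 0.0949).

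None of 11 receptor inhibitors and ubiquitin ligases passed, nor any of 10 endocytosis and sorting genes or 8 PI3K-AKT genes (lowest limma adjusted p = 0.111, 0.112 and 0.0562). ERRFI1, an inhibitor of the EGFR kinase, had log2 levels of 13.68, 13.44 and 13.42 in SAH-BCL9B and 13.69, 13.82 and 13.83 in vehicle. Its change was -0.27 ± 0.10 (SE, limma adjusted p = 0.152).

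Among 19 genes that ERK signalling is known to induce, 2 fell, 3 rose and 14 did not pass, beside 3.43% of all genes lower and 3.49% higher. The median change was 0.01. SPRY4, a feedback inhibitor of receptor signalling, fell by 0.72 and FOS, an AP-1 subunit gene, by 0.63 on the log2 scale (limma adjusted p = 0.00853 and 0.00507). DUSP5, an ERK phosphatase gene, rose by 1.15, the AP-1 subunit gene FOSL1 by 0.44 and the early response gene IER3 by 0.43 (limma adjusted p = 0.00268, 0.03 and 0.0208). The calls of DUSP5, FOS and SPRY4 held without each array in turn. Those of FOSL1 and IER3 ended without any array other than SAH-BCL9B 2 (limma adjusted p = 0.0504 to 0.136).

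**Figure D3:**
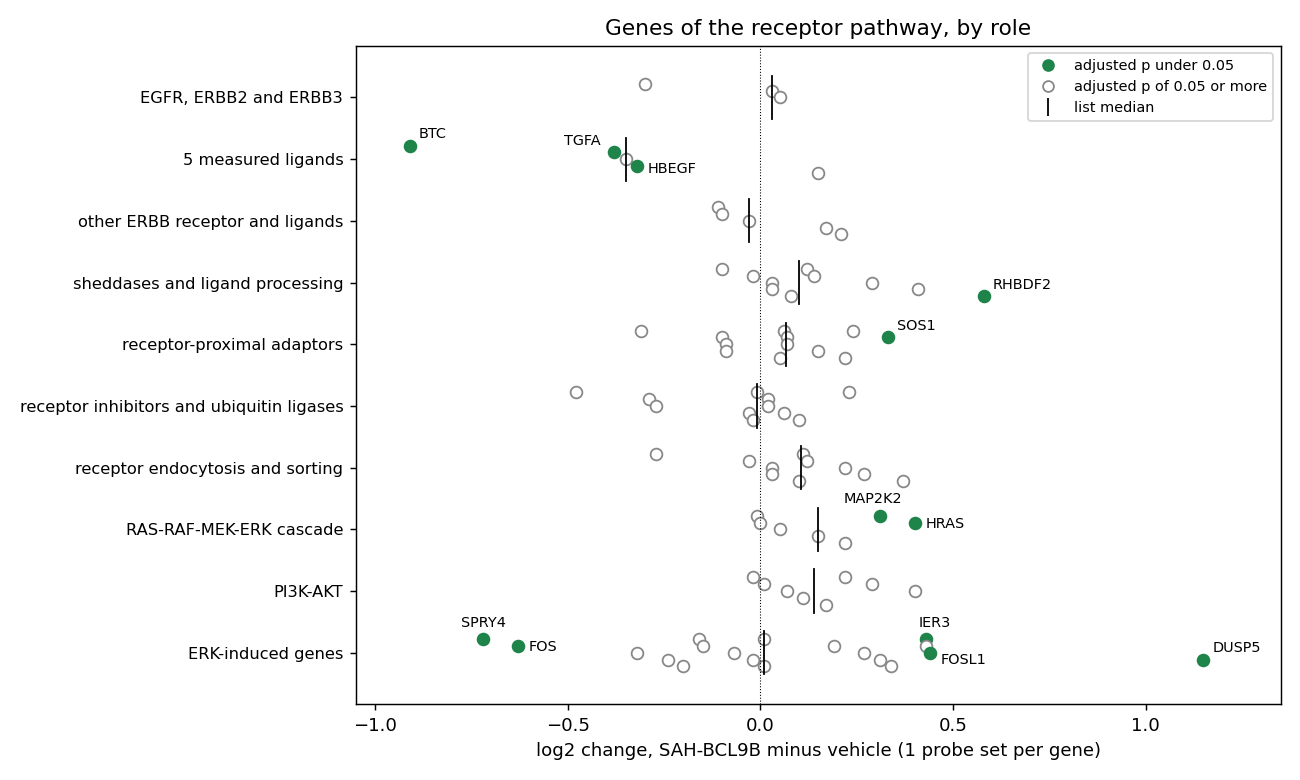
Log2 change, SAH-BCL9B minus vehicle (horizontal axis), of each gene measured by 1 probe set, in rows by role, with filled points for an adjusted p under 0.05 and black bars for list medians. BTC, TGFA and HBEGF lie left of 0, and the RAS-RAF-MEK-ERK genes that passed lie right of it.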

How the data were processed

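The authors deposited log2 expression values of 6 arrays, each from a separate culture of a triplicate. RMA and affy are named in the submitters' processing notes, without versions or options. RMA normalizes between arrays, so a shift common to most transcripts is removed. Probe sets were named through GEO's platform annotation, with symbols looked up by Entrez ID in RefSeq; 41091 of 54613 non-control probe sets named 1 gene.

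Groups were compared with limma 3.58.1 in R 4.3.3 (lmFit, eBayes, SAH-BCL9B minus vehicle, no covariates or filter), with Benjamini-Hochberg adjustment over all 54613 probe sets and a threshold of 0.05. Pathway genes were read from a fit on 19775 genes, each by its probe set with the highest mean. The number of arrays limits the precision. In simulated data, 100 of 54613 probe sets were changed by 0.5 and 100 by 1 (log2). The fit recovered 1 of the first and 55 of the second, with 4 false calls. Far fewer probe sets were changed there than the 1363 called in these data. The adjustment is stricter where fewer change, so these are not the recovery rates of the real fit.

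The members and lists were chosen with earlier results of these data known. Named were all members and, of each other list, up to 4 genes past the threshold with the largest changes; for BTC and TGFA, the 3 most correlated genes past the threshold were named. IER3, ERBB4, FRMD8, ADAM17, ADAM10, ERRFI1 and the cell type markers were named after their values were seen. Alternatives covered filters, uses of probe sets, normalization, the variance model, array weights, a replicate block, the ACTB difference as a covariate and arrays left out.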

Additional observations from a re-analysis of the deposited data

How the results depend on the processing

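No member probe set passed upward under any alternative. The number of member probe sets that fell was 1 of 29 as reported, beside 1.37% of all probe sets. It was 4 of 20 with only probe sets above the median of all values (4.9% of all), 5 of 29 with a variance trend and robust fit (2.6%), 3 of 29 with array weights (2.65%), 3 of 29 with a repeated quantile normalization (1.62%) and 2 of 29 with only probe sets naming 1 gene (2.07%). With 1 probe set per gene it was 3 of 8 (3.43%). It was 1 of 8, BTC alone, when each gene's probe sets were averaged instead (2.6%). It was 0 with the replicate number as a block (0.218%), 0 with vehicle 3 and SAH-BCL9B 2 left out together (1%), and 0 to 1 without 1 array (0.123% to 1.38%). The number of all probe sets past the threshold, 1363 as reported, was 2722, 2923 and 2738 with the filter, the variance trend and the array weights. It was 761 without _x_at and _s_at probe sets, 171 with the replicate block, 836 without vehicle 3 and SAH-BCL9B 2, and 97 to 1478 without 1 array (97 without vehicle 1). Pathway genes past the threshold numbered 9 as reported, and 16 with the filter, 17 with the variance trend, 19 with array weights, 5 without _x_at and _s_at probe sets, 3 with the replicate block and 3 to 12 without 1 array. Same-numbered arrays of the groups correlated by 0.41, 0.06 and -0.31 in their deviations from group means, so the numbers were not taken to pair cultures, nor did every array correlate best with its own number, and the replicate block left BTC 241412_at at an adjusted p of 0.106 in limma. Why these counts differ was not tested, other than that fewer arrays or features enter some of the fits. Detection calls were not used, so signal over background is unknown for dim probe sets.

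Of 43 probe set and gene changes in 681 alternative values, 549 kept direction and side of the threshold, 78 no longer passed, 17 passed that had not, and 37 turned sign, all of them for probe sets that did not pass. With the ACTB covariate the turned values were -0.02 for EGFR 1565484_x_at, 0.41 for EGFR 201983_s_at, -0.01 for EGFR 211550_at, -0.03 for ERBB2 216836_s_at and -0.11 for HBEGF 244857_at. With array weights they were 0.13 for EGFR 201983_s_at and -0.02 for ERBB2 216836_s_at and HBEGF 244857_at. Without vehicle 3 and SAH-BCL9B 2 they were 0.34 for EGFR 201983_s_at, 0.00 for EGFR 211550_at, -0.04 for ERBB2 216836_s_at and 0.03 for TGFA 205015_s_at. A repeated quantile normalization gave 0.00 for ERBB3 1563253_s_at. Without 1 array the ranges were -0.10 to 0.14 for EGFR 1565483_at, -0.13 to 0.18 for EGFR 1565484_x_at, -0.44 to 0.38 for EGFR 201983_s_at, -0.18 to 0.03 for EGFR 210984_x_at, 0.00 to 0.08 for EGFR 211550_at, -0.26 to 0.03 for EGFR 211607_x_at and -0.05 to 0.16 for EGFR 224999_at. They were -0.03 to 0.06 for ERBB2 216836_s_at, -0.05 to 0.11 for ERBB2 234354_x_at, -0.07 to 0.05 for ERBB3 1563253_s_at, -0.15 to 0.12 for ERBB3 215638_at, -0.16 to 0.04 for TGFA 205015_s_at and -0.08 to 0.09 for HBEGF 244857_at.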
